A study of Macaca mulatta with 30 samples.

Results

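The liver was compared with the 3 salivary glands in rhesus macaques (Macaca mulatta), with every comparison made inside an animal. 24 of the study's 30 RNA sequencing libraries entered: the 6 liver libraries and the 18 libraries of parotid, submandibular and sublingual gland from the same 6 animals. Libraries were chosen by the tissue code in their names (LIV, PAR, SM, SL) and joined by animal number. The 6 pancreas libraries were left aside except in 1 alternative model and in setting the factors of the trimmed-mean scaling described below. The animals were 4 females and 2 males, all tissue had been flash frozen, and the labels name no treatment, no genotype and no age. The glands were from the left side, except the parotid of animal 3, whose library name gives the right. Each tissue therefore had 6 biological replicates, and each piece was a whole-tissue section, so fewer cells of a type and less RNA per cell cannot be told apart.

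Hepatocytes, the main cells of the liver, release most plasma proteins into the blood, make urea, glucose and ketone bodies, and turn cholesterol into bile acids that leave through bile canaliculi. Salivary glands work in the other direction: acinar cells release saliva proteins and a salt-rich fluid into ducts, duct cells modify the salt, and myoepithelial cells squeeze the acini. Parotid acini are serous, sublingual acini are mainly mucous, and the submandibular gland is mixed. The study itself was about amylase genes, and liver served in it as a digestive organ beside pancreas.

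Values are TPM, transcript abundances scaled so that every library has the same total. Differences are liver minus the mean of the 3 glands of the same animal in log2(TPM + 1), averaged over 6 animals, with a moderated test in limma and a Benjamini-Hochberg adjusted p-value below 0.05 as the threshold. On this scale the change of low genes is understated. A gene is said to hold against every gland when the same test passed in the same direction for parotid, for submandibular and for sublingual gland taken singly. The 3 single-gland tests share the liver libraries. 13032 of 21292 genes reached at least 1 TPM in at least 6 of the 24 libraries and were tested.

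A liver library had 11663 to 12394 genes of at least 1 TPM, against 8763 to 10570 in parotid, 8477 to 13515 in submandibular and 9021 to 13139 in sublingual gland. The 10 most abundant genes took 20.3 to 27.4% of all TPM in liver, and a median of 79.6% in parotid, 75.6% in submandibular and 37.3% in sublingual gland. Because the total is fixed, the abundant gland transcripts lower all other gland values, so each result is also given after trimmed-mean scaling, which sets the bulk of genes level between libraries. The submandibular library of animal 4 stood apart. Its 9 adipose markers summed to 10056 TPM, against 22.3 to 208 TPM in the other 5 submandibular libraries and 74.6 to 288 TPM in liver, and SMR3B, a salivary proline-rich protein gene, was at 914 TPM against 103269 to 152354 TPM. The 10 skeletal muscle markers summed to 94521 TPM in the parotid library of animal 6, and to 27008 and 9935 TPM in sublingual gland of animals 5 and 1. Saliva genes were also low in the sublingual piece from animal 4, which held 2016 TPM of ZG16B where the other 5 held 31359.7 to 332616 TPM. Results are given with and without the fat-rich library, and, where it matters, without the 4 libraries rich in fat or muscle or without animal 4.

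The whole transcriptome differed widely between liver and glands. Against the mean of 3 glands 6400 genes were higher in liver (49.1% of those tested) and 1469 lower (11.3%), in all 60.4%, around a median difference of 0.56. With trimmed-mean scaling the median was -0.01, and 3323 genes were higher (25.5%) and 3203 lower (24.6%), in all 50.1%. Scaling changed the call of 3077 genes that were higher as deposited and were not called higher after scaling, and of 1734 genes that were called lower after scaling alone. Against every gland singly 2344 genes held as higher (18%) and 493 as lower (3.78%) as deposited, in all 21.8%, and 1957 (15.0%) and 1350 (10.4%) after scaling, in all 25.4%. Under both scalings together 1900 genes (14.6%) held as higher against every gland and 493 (3.78%) as lower, in all 18.4%.

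Without the submandibular library of animal 4 the counts against every gland were 2598 (19.9%) and 603 (4.63%) as deposited, and 2074 (15.9%) and 1451 (11.1%) after scaling. Without the 4 libraries rich in fat or muscle they were 2089 (16%) and 453 (3.48%) as deposited, and 1696 (13%) and 1062 (8.15%) after scaling.

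Taken one gland at a time, the calls in TPM as deposited leaned to liver in parotid, with 8497 higher (65.2%) and 881 lower (6.76%), in all 72.0%. Against submandibular gland 4377 were higher (33.6%) and 682 lower (5.23%), in all 38.8%, and against sublingual gland 2636 (20.2%) and 1808 (13.9%), in all 34.1%. After trimmed-mean scaling the split was close to even. It was 3025 (23.2%) and 2668 (20.5%) against parotid, in all 43.7%, then 3233 (24.8%) and 2629 (20.2%) against submandibular gland, in all 45.0%, and 2782 (21.3%) and 2322 (17.8%) against sublingual gland, in all 39.2%. Leaving out animal 4 from the submandibular comparison raised its counts as deposited to 9811 higher and 961 lower, of 13032 genes tested. After scaling the change was smaller, with 3705 higher and 3058 lower without animal 4.

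**Figure D1:**
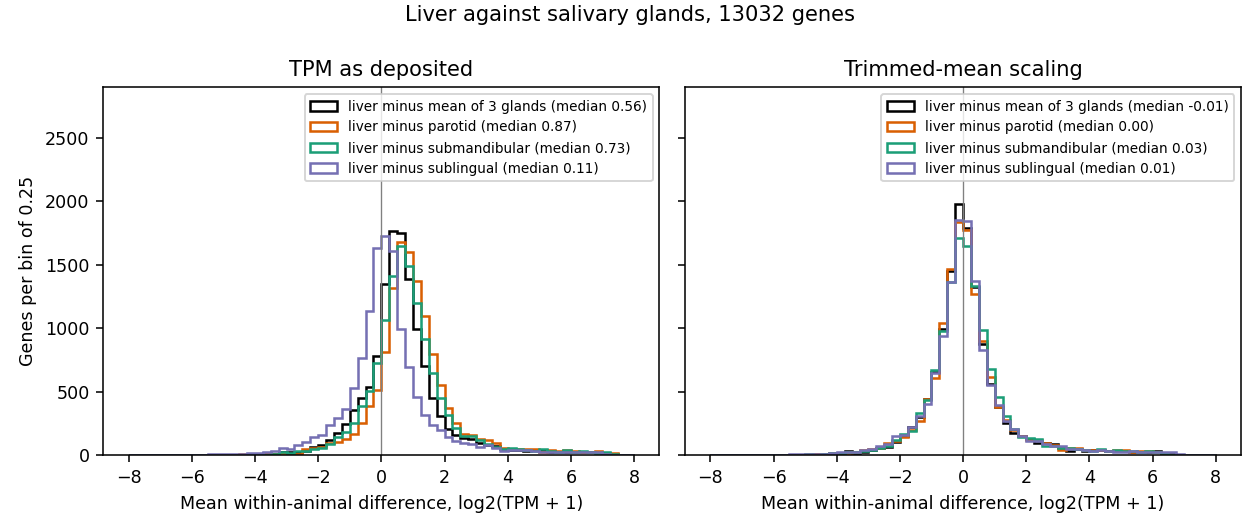
Number of genes (y axis, bins of 0.25) by mean within-animal difference in log2(TPM + 1) between liver and each gland or the mean of 3 glands (x axis), for 13032 genes, 6 animals. As deposited the medians were 0.87 for parotid, 0.73 for submandibular and 0.11 for sublingual gland; with trimmed-mean scaling all 4 curves centred near 0, and a tail of genes reached differences above 6 under either scaling.

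The largest rises in liver included several apolipoprotein genes, other genes of plasma proteins, the hormone gene HAMP and the enzyme genes AOC1 and GSTA1. Among genes with a symbol, at least 100 TPM in the higher side, a difference of 1 sign in 6 of 6 animals and a hold against every gland, 433 were higher in liver, and the 12 largest were APOC3, APOA1, APOA2, APOC4, APOC2, A1BG, AMBP, ITIH4, SAA4, AOC1, GSTA1 and HAMP. Their differences lay between 7.27 and 7.64 (SE 0.22 to 0.31, limma adjusted p from 3.45e-09 to 1.07e-08), between 6.5 and 6.85 with trimmed-mean scaling, and between 7.30 and 7.65 without the submandibular library of animal 4. In all 12 the lowest liver library was above the highest of the 18 gland libraries, which was so for 7.92% of all tested genes. The 12 genes were chosen by these same values, so this separation follows from the choice and is a description only.

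APOA1 encodes the main protein of high-density lipoprotein. In liver its lowest, median and highest values were 9133, 9744 and 14818 TPM. In the glands they were 38.9, 40.4 and 65.9 TPM in parotid, 35.5, 48.8 and 61.1 TPM in submandibular and 54.6, 68.7 and 73.8 TPM in sublingual gland. The difference was 7.63 (SE 0.23), and it was as large without the fat-rich submandibular piece (7.63). APOA2, a second protein of the same particle, was the most abundant of the 12 at 37594 to 66168 TPM in liver against 137 to 424 TPM over the glands.

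APOC3, which slows the breakdown of triglyceride-rich particles, had liver values of 6276, 10459.7 and 13818 TPM. Its gland values were 31.4 to 64 TPM in parotid, 26.2 to 60.1 TPM in submandibular and 47.2 to 110.1 TPM in sublingual gland. Its partners APOC2, the activator of lipoprotein lipase, and APOC4 were at 4551 to 8251 and 1868 to 2976 TPM in liver, and at 19.8 to 59.6 and 6.87 to 22.7 TPM over the 18 gland libraries. None of these 3 genes overlapped between liver and gland libraries.

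HAMP encodes hepcidin, the hormone that limits iron release into the blood. Its liver values were the most spread of the 12, with 654, 1447 and 3629 TPM. Animal 4 was highest and animal 5 lowest (654 TPM). The glands held 2.38 to 15.2, 5.26 to 10.6 and 5.94 to 24.7 TPM in the parotid, submandibular and sublingual glands, and the difference was 7.27 (SE 0.31, limma adjusted p = 1.01e-08).

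AOC1, a diamine oxidase, was at 779 to 2169.9 TPM in liver and 2.90 to 10.7 TPM in the glands. GSTA1, a glutathione transferase of detoxification, was at 1783 to 3960.4 and 4.99 to 29.1 TPM. AMBP, which yields alpha-1-microglobulin and bikunin, was at 3927 to 10612 and 18.4 to 60.3 TPM, and ITIH4, a plasma protein of the inter-alpha-trypsin inhibitor family, at 1388 to 2576 and 8.14 to 19.7 TPM. SAA4, a serum amyloid apolipoprotein, was at 2333 to 6344 TPM in liver and 11.9 to 82.7 TPM in the glands, and A1BG at 867 to 1449 and 3.42 to 10.9 TPM. APOC, SAA, GSTA and ITIH genes have close relatives, and how reads were divided among them is not given in the sources used here, so single values are uncertain.

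These 12 genes were chosen for the largest differences, so their small gland shares of the liver level are a description only. Their mean in parotid was 0.405 to 0.542% of the mean in liver, in submandibular gland 0.425 to 0.586%, and in sublingual gland 0.617 to 1.05%. Over the 70 genes with at least 1000 TPM in liver that held against every gland, the median share was 0.670% in parotid, 0.848% in submandibular and 1.01% in sublingual gland, and the upper quartiles were 3.60, 8.60 and 12.1%. In the other direction, the mean of SMR3B in liver was 3.27% of that in submandibular gland, and the mean of ZG16B, a secreted lectin-like protein, 1.08% of that in sublingual gland. The origin of these low levels was not tested, and a low TPM in the table is given here as a level and not as a sign of expression.

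**Figure D2:**
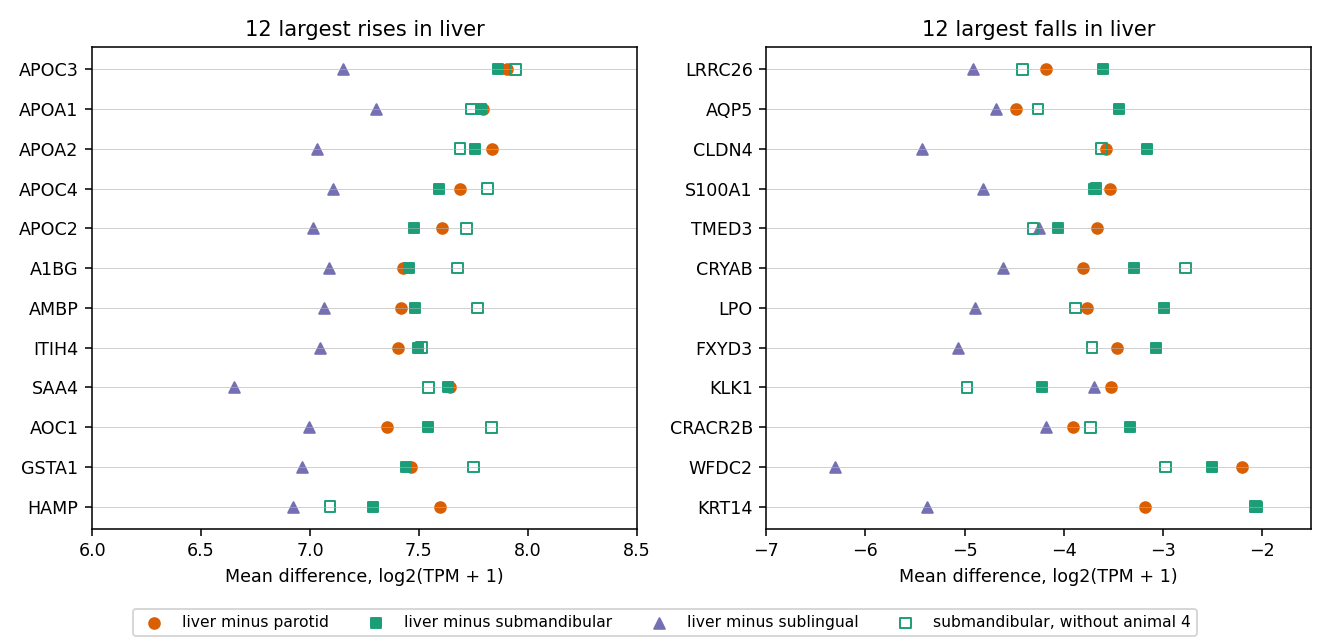
Mean within-animal difference in log2(TPM + 1) (x axis) between liver and each gland singly for the 12 largest rises and the 12 largest falls in liver (y axis), 6 animals; the open square leaves animal 4 out of the submandibular comparison. The rises spanned 6.65 to 7.90 and the falls -6.31 to -2.05 with all animals.

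The plasma protein genes moved as a group. Of 29 plasma carriers and acute phase proteins 28 were in the table, 28 passed the filter and 28 were higher in liver than in the mean of 3 glands under either scaling, 27 of them against every gland. The median difference was 6.96, or 6.18 after scaling, against 0.56 and -0.01 over all tested genes. Of all tested genes 49.1% were higher in liver than in the mean of 3 glands as deposited, and 25.5% after scaling. Against every gland 18% of all tested genes held as higher as deposited, and 15.0% after scaling. The counts of the hepatocyte lists that follow are to be read beside these same shares. The 28 genes together took 12% ± 3.49 of all TPM in liver (SD, n = 6), and 0.0739% ± 0.0185, 0.0956% ± 0.0552 and 0.163% ± 0.0662 in parotid, submandibular and sublingual gland.

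Albumin (ALB), the main carrier protein of plasma, had liver values of 11506, 27755 and 46181 TPM and gland values of 101 to 318 TPM (7.06). RBP4, the carrier of vitamin A, was at 9786 to 23336 TPM in liver. In the glands it lay between 60.4 and 149 TPM, except in the submandibular library of animal 4, which held 1054 TPM. Haptoglobin (HP), which binds free haemoglobin, was at 9939 to 16823 TPM in liver and 56.4 to 194 TPM in the glands, and transthyretin (TTR), which carries thyroid hormone, at 8140.4 to 13451 and 56.0 to 123 TPM.

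SERPINA3, an acute phase protease inhibitor, was the member that did not hold against every gland. It exceeded parotid by 5.32 and submandibular gland by 5.09, and its difference from sublingual gland was 0.93 (limma adjusted p = 0.214). Liver held a mean of 847 TPM and sublingual gland 609 TPM, with sublingual values from 46.9 to 1961 TPM. The liver values, 239 to 1458 TPM, overlapped them.

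All 24 genes of apolipoproteins and lipoprotein handling were tested, and all 24 were higher in liver against the mean and against every gland under either scaling, with a median difference of 6.08 (5.35 after scaling). They took 10.2% ± 1.76 of all TPM in liver. Among the smaller differences were those of SCARB1, the receptor for high-density lipoprotein (2.65), and APOA4 (2.68). APOC1 was at 5593 to 20352 TPM in liver and 29.9 to 179.6 TPM in 17 gland libraries. The fat-rich submandibular piece held 1033 TPM of it.

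Of 36 complement and coagulation genes 35 were tested, 35 were higher in liver under either scaling and 34 held against every gland (median 5.99, or 5.22 after scaling). C3, the hub of the complement cascade, had liver values of 490.5, 1481 and 2417 TPM, with animal 1 lowest and animals 2, 5 and 6 highest. The glands held 5.03 to 47.5 TPM. Antithrombin (SERPINC1) was at 778 to 1767 TPM against 7.37 to 15.3 TPM, and plasminogen (PLG) at 395 to 1492 against 2.35 to 8.34 TPM. Complement factor B (CFB) had a median of 1015 TPM in liver. Among the glands its mean was highest in sublingual gland, 57.1 TPM, against 6.96 TPM in parotid. C5 was the gene that did not hold: it exceeded parotid by 2.51 and submandibular gland by 2.60, but its difference from sublingual gland was 0.42 (limma adjusted p = 0.178).

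The metabolic lists went the same way. All 33 urea cycle and amino acid genes in the table were tested, and all 33 were higher in liver against every gland under either scaling, with a median of 5.31 (4.54 after scaling). CPS1, the entry enzyme of the urea cycle, differed by 5.74, OTC by 5.89 and ARG1, which releases urea, by 6.23. ASS1, which also works in the citrulline to arginine route of other tissues, had liver values of 500.3 to 1821 TPM and gland values of 14.4 to 75.4 TPM (4.98). AGXT, which clears glyoxylate, was at 577 to 1362 and 3.33 to 7.47 TPM (7.16), MAT1A, the hepatic enzyme of S-adenosylmethionine synthesis, at 955 to 1695 and 6.05 to 19.1 TPM, and HPD, of tyrosine breakdown, at 757 to 1232 and 5.39 to 10.1 TPM.

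All 18 genes of gluconeogenesis and glycogen were higher in liver against every gland as deposited, 16 of them also after scaling (median 5.01, or 4.36). PPP1R3B and PPP1R3C, which steer glycogen synthesis, were those that did not hold against every gland after scaling. PCK1, the committing enzyme of gluconeogenesis, varied widely between livers, at 573, 1673, 1365, 107, 1291 and 401 TPM in animals 1 to 6. Even the lowest, in animal 4, was above the highest gland library (20.7 TPM, the submandibular piece of the same animal). G6PC, listed under that older symbol of the glucose-6-phosphatase gene, differed by 5.82, FBP1 by 5.41 and KHK, which phosphorylates fructose, by 5.63.

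Of 28 genes of fatty acid oxidation and ketone bodies 26 were higher in liver, 24 of them against every gland, and 24 and 24 after scaling, with medians of 2.72 and 1.96. SLC27A5, which activates bile acids and very long fatty acids, was at 231 to 400.1 TPM in liver and 1.98 to 7.15 TPM in the glands (6.07). The difference of ACADM was 2.74, that of HADHA 1.10, and those of HADH and HADHB, which did not pass, were 1.36 and 0.90 (limma adjusted p = 0.0537 and 0.097). Without the fat-rich submandibular library all 28 genes were higher. CPT1A, the gate of fatty acid entry into mitochondria, differed by 1.06 (limma adjusted p = 0.0317) and did not hold against every gland. FGF21, a fasting hormone, was at 6.02 to 64.7 TPM in liver and differed by 3.67.

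Of 24 bile acid genes 21 were tested and 20 were higher in liver against every gland under either scaling (median 4.57, or 3.97 after scaling). CYP7A1, the rate-limiting enzyme of bile acid synthesis, was low even in liver at 4.91 to 91.1 TPM, with medians of 0.162, 0.185 and 0.294 TPM in the parotid, submandibular and sublingual glands (3.81). The uptake carriers SLCO1B1 and SLC10A1 differed by 6.41 and 6.08, and the export pump ABCB11 by 4.53. SLCO2B1, a carrier also present outside the liver, was the exception (0.08, limma adjusted p = 0.768).

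Of 42 cytochrome P450 and conjugation genes 30 were in the table and 29 were tested. All 29 were higher in liver as deposited and 28 after scaling, and 28 and 27 held against every gland (median 5.65, or 4.94). CYP2E1, which oxidises ethanol, had liver values of 1341, 1819 and 4075 TPM and gland values of 5.81 to 23.5 TPM, and CYP3A4 of 391, 1163 and 1712 TPM and 2.05 to 9.76 TPM. Neither overlapped between tissues. The CYP3A, CYP2C and GSTA genes are near-identical families, so single values within them are uncertain.

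Of 24 growth hormone, insulin-like growth factor and iron hormone genes 21 were tested and 20 were higher in liver, 19 of them against every gland (median 4.76, or 4.11 after scaling). IGFBP1, a binding protein that responds to fasting, ranged widely between livers, with 147, 1161 and 2296 TPM, against 1.98 to 13.7 TPM in the glands (6.91). IGF1 itself differed by 4.30, and the growth hormone receptor GHR by 2.95. The iron sensors TFR2 and HJV, which act upstream of hepcidin, differed by 6.86 and 4.76. HFE, another gene of that route, did not pass (0.09, limma adjusted p = 0.754), and it was lower in liver after scaling (-0.50, limma adjusted p = 0.0441).

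The transcription factors of the hepatocyte were low in TPM but differed clearly. Of 25 listed 24 passed the filter and 24 were higher in liver, 23 of them against every gland, and 23 and 20 after scaling (median 3.33, or 2.75). HNF4A, a central regulator of hepatocyte genes, had liver values of 33.0, 50.9 and 61.1 TPM and 0.239 to 0.659, 0.32 to 0.581 and 0.246 to 0.481 TPM in the parotid, submandibular and sublingual glands (5.11, limma adjusted p = 9.65e-09). CREB3L3, a membrane-bound factor of the fasting response, differed most (6.20), with 85.2 to 156 TPM in liver and 0.414 to 1.10 TPM in the glands.

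FOXA1, a factor that opens chromatin in several epithelia, had a graded level. Its medians were 19.7 TPM in liver, 0.219 TPM in parotid, 2.03 TPM in submandibular and 2.82 TPM in sublingual gland, while those of its relative FOXA2 were 24.4, 0.305, 0.246 and 0.435 TPM. CEBPB, KLF15 and TBX3 held against every gland as deposited but not after scaling. ESRRA, a factor of energy metabolism in many tissues, was higher by 0.76 as deposited (limma adjusted p = 0.0169) and did not pass after scaling (-0.00293, limma adjusted p = 0.99).

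Genes of liver cells other than hepatocytes are given by cell type, against 49.1% of all tested genes higher in liver as deposited and 25.5% after scaling. Of 19 genes of Kupffer cells, the resident macrophages of the liver, 14 were tested and 13 were higher in liver under either scaling, 9 of them against every gland as deposited and 8 after scaling (median 2.71, or 2.10). CD5L, a macrophage protein, had liver values of 26, 48.6 and 86.4 TPM. The other 17 gland libraries held 0.114 to 1.6 TPM, and the fat-rich submandibular piece 16.6 TPM, below every liver. MARCO, a scavenger receptor, differed by 3.94.

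The separation of CD5L, with every liver library above all 18 gland libraries, was found in 2 of the 14 tested Kupffer genes. Over all tested genes the share was 7.92%. The complement genes C1QA, C1QB and C1QC were among the Kupffer genes without it. C1QB was at 39.9 to 151 TPM in liver and 2.00 to 39.6 TPM in 17 gland libraries, but at 314 TPM in the fat-rich piece, above every liver library. Against submandibular gland its difference was 3.13 with all animals and 4.24 without animal 4. The summed Kupffer list was 1393 TPM in that library and 245 to 790.0 TPM in liver.

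Of 16 genes of liver sinusoidal endothelium, the fenestrated lining of hepatic capillaries, 13 were tested, 11 were higher as deposited and 10 after scaling, and 9 held against every gland under either scaling (median 2.86, or 2.36). FCN2, a soluble lectin of complement, differed by 6.58, the lectin CLEC4G by 4.17 and the scavenger receptor STAB2 by 3.10. F8, coagulation factor VIII, and LYVE1 did not pass (0.33 and 0.88, limma adjusted p = 0.107 and 0.0563). Of 13 tested stellate cell and cholangiocyte genes 4 were higher (HHIP, NGFR, COLEC10 and COLEC11, all against every gland) and 4 lower (EPCAM, SOX9, KRT7 and CFTR) as deposited, with a median of 0.67. The other 5 did not pass. After scaling 4 were higher and 5 lower, and the median of -0.00026 stood beside -0.01 over all tested genes, as 0.67 stood beside 0.56. Without the fat-rich submandibular library 7 were higher and 4 lower as deposited. The 4 lower genes belong to bile duct cells and also to salivary duct or progenitor cells.

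**Figure D3:**
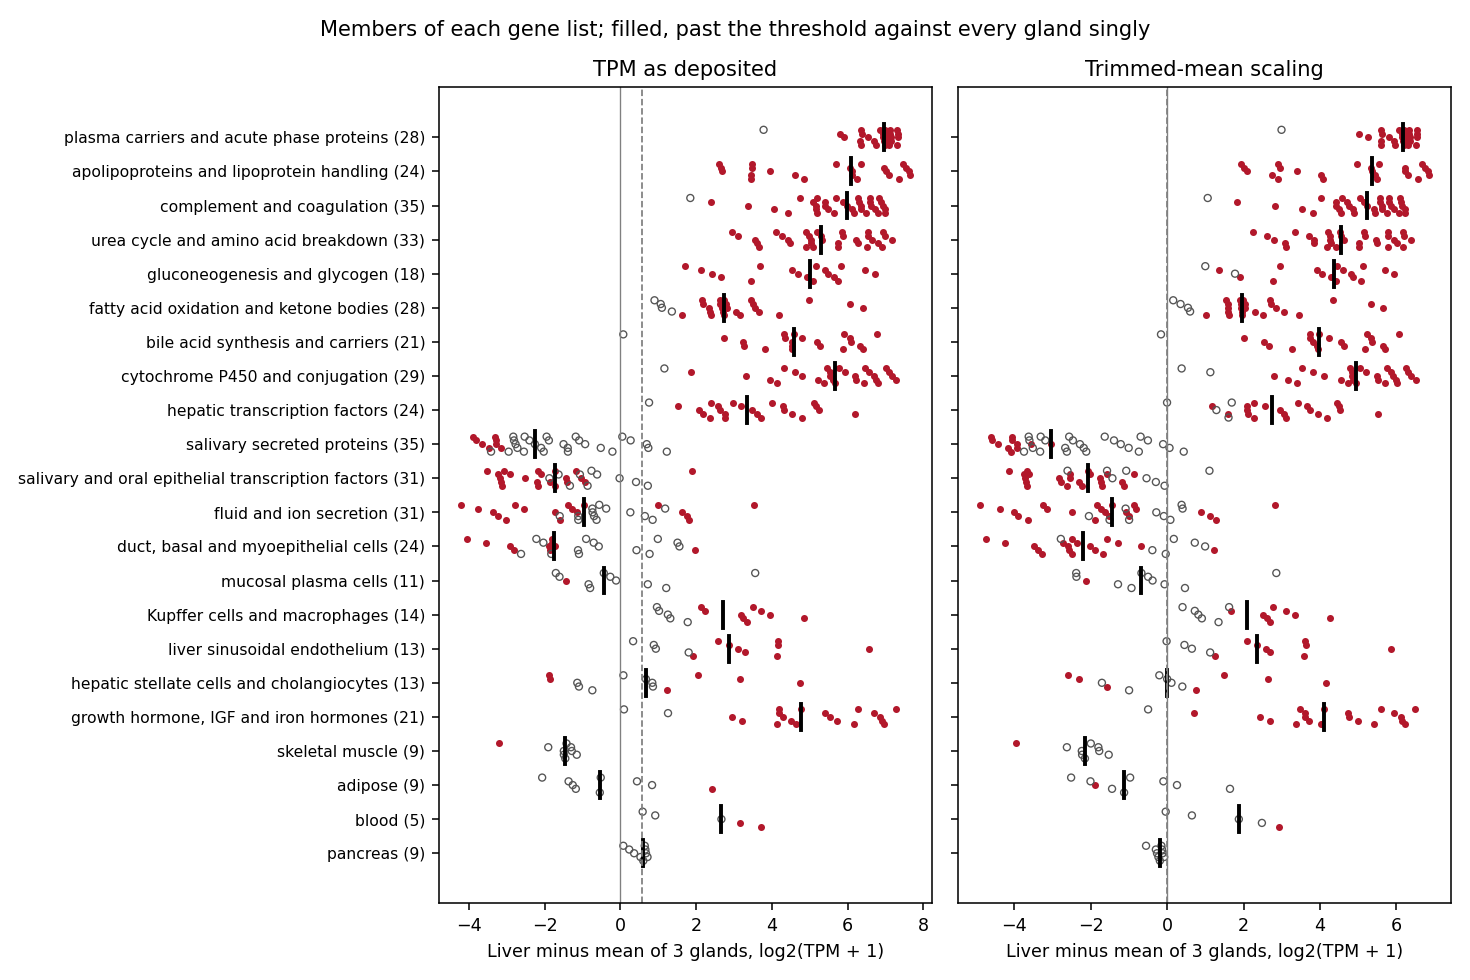
Mean within-animal difference in log2(TPM + 1) between liver and the mean of 3 glands (x axis) for the tested members of each gene list (y axis), 6 animals; filled points passed the threshold against every gland singly, the black bar is the median of the list and the dashed line the median of all 13032 genes. The hepatocyte lists lay right of the line, with medians of 2.72 to 6.96, and the salivary secreted, transcription factor and duct lists left of it, with medians of -2.26 to -1.72.

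In the other direction, among genes that met the conditions for naming, the falls were smaller than the rises. These conditions left out LOC identifiers, of which 28 were lower and 222 higher against every gland. They also left out genes that failed against 1 gland, such as BPIFA2, which differed by -5.90 from submandibular gland without animal 4. 34 genes met the same conditions as lower in liver, and the 12 largest were LRRC26, AQP5, CLDN4, S100A1, TMED3, CRYAB, LPO, FXYD3, KLK1, CRACR2B, WFDC2 and KRT14. Their differences lay between -4.23 and -3.54 (SE 0.21 to 0.51, limma adjusted p from 4.69e-08 to 8.18e-05), between -4.92 and -4.24 after scaling, and between -4.43 and -3.82 without the submandibular library of animal 4. The liver libraries lay below all 18 gland libraries in 7 of the 12, against 1.7% of tested genes, and below the other 17 in all 12. As for the rises, the genes were chosen by these same values, so these counts are a description only.

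TMED3 encodes a cargo receptor of early secretory transport. Its liver values were 14.4, 18.7 and 21.7 TPM, and its gland values 129.9, 288 and 360.4 TPM in parotid, 107, 398 and 492 TPM in submandibular and 100.2, 576 and 765 TPM in sublingual gland. The groups did not overlap, and the difference was -3.99 (SE 0.24, -4.04 without the fat-rich piece).

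AQP5 encodes the apical water channel of acinar cells. Liver held 3.59, 3.70 and 5.57 TPM and parotid 60.2, 124 and 159 TPM. In submandibular gland 5 libraries held 63.5 to 153 TPM and that of animal 4 3.22 TPM, below the liver of the same animal (5.57 TPM). Sublingual gland held 19.8, 221 and 313 TPM, with animal 4 lowest. LRRC26, a subunit that lets potassium channels open at rest in secretory cells, had the same shape, with 2.55 to 5.07 TPM in liver, 67.6 to 154 TPM in 5 submandibular libraries and 2.63 TPM in animal 4. AQP5 differed from submandibular gland by -3.44 with all animals and -4.26 without animal 4, and LRRC26 by -3.60 and -4.41.

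KLK1, tissue kallikrein, a protease of striated duct cells, was at 33.8 to 77.3 TPM in liver. Its gland values were 127 to 2688 TPM in parotid, 986 to 2192 TPM in 5 submandibular libraries and 169.6 to 969.8 TPM in sublingual gland. LPO, the peroxidase of saliva, was at 5.29 to 12.3 TPM in liver, 51.4 to 221 TPM in parotid and 16.1 to 1158 TPM in sublingual gland, where animal 4 was lowest. Of these genes LPO, FXYD3 and KLK1 overlapped with liver through the fat-rich piece, as did LRRC26 and AQP5.

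WFDC2, a secreted protein with whey acidic domains, was weighted to sublingual gland (624 to 2388 TPM) over parotid (68.9 to 258 TPM), with 17.7 to 26.8 TPM in liver. Its difference was -2.19 from parotid, -2.5 from submandibular and -6.31 from sublingual gland. KRT14, a keratin of basal and myoepithelial cells, was at 2.58 to 8.33 TPM in liver and at 13.2, 29.3 and 52.9 TPM in submandibular gland. In sublingual gland animals 1 and 4 held 1809 and 1900.4 TPM, far above the other 4 (58.7 to 177 TPM). Keratin genes have close relatives, so single keratin values are uncertain. In the same 2 libraries the duct, basal and myoepithelial list summed to 6104 and 7198 TPM, against 1134 to 2011 TPM in the other 4. PITX1, a transcription factor gene, was also highest there, at 200 and 330 TPM against 40.0 to 107 TPM. The reason for these high values was not tested.

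S100A1, a calcium-binding protein, was at 40.7 to 88.8 TPM in liver and 245 to 4493 TPM in the glands, and CRYAB, a small heat shock protein also abundant in muscle, at 10.6 to 20.9 and 95.7 to 990.1 TPM. The highest CRYAB values were in the sublingual library of animal 1 (990.1 TPM) and the parotid library of animal 6 (983 TPM), both rich in muscle markers. CRACR2B, a regulator of calcium entry, was at 6.46 to 10.3 and 26.2 to 357 TPM, and CLDN4, a tight junction protein of ducts, at 3.43 to 7.22 and 7.40 to 708 TPM. FXYD3, a regulator of the sodium pump, was at 17.6 to 30.5 TPM in liver and 174 to 1384 TPM in 17 gland libraries. Without the 4 libraries rich in fat or muscle the 12 differences were -4.55 to -3.44.

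Most saliva protein genes were lower in liver against the mean of 3 glands, and a smaller part of them against every gland. Of 44 listed 37 were in the table and 35 were tested. Against the mean of 3 glands 27 were lower in liver and 2 higher, and 8 were lower against every gland, or 22.9% beside 3.78% of all tested genes (median -2.26). After scaling 29 were lower and 0 higher, and 11 were lower against every gland, or 31.4% beside 10.4% (median -3.04). In the liver libraries the listed genes summed to 1.40% ± 0.193 of TPM (SD, n = 6), against 15.4% ± 10.8 in parotid, 34.7% ± 18 in submandibular and 29.1% ± 21.3 in sublingual gland. The 2 genes higher in liver as deposited were DNASE1, a secreted nuclease (0.74), and PRR15L (1.22), and neither was called after scaling (0.06 and 0.43).

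The saliva genes split by gland. BPIFA2, a secreted protein that binds bacterial lipopolysaccharide, had values of 19294, 30807 and 74909 TPM in parotid. In submandibular gland 5 libraries held 83114 to 138344 TPM, and that of animal 4 held 406 TPM. Sublingual gland held 644, 1754 and 6174 TPM, overlapping with the liver at 1306, 1720.4 and 2758 TPM. The difference was -4.31 from parotid, -4.58 from submandibular and 0.03 from sublingual gland (limma adjusted p = 2.31e-06, 0.00205 and 0.96). Against submandibular gland it was -5.90 without animal 4 (limma adjusted p = 6.36e-08).

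SMR3B followed the same order, with 21108 to 196684 TPM in parotid, 103269 to 152354 TPM in 5 submandibular libraries, 1287 to 7819 TPM in sublingual gland and 2670.3 to 4269 TPM in liver. Its difference from sublingual gland was 0.14 (limma adjusted p = 0.818). The values in liver and sublingual gland overlapped. CA6, the secreted carbonic anhydrase of saliva, differed by -3.29, -3.78 and -1.42 from parotid, submandibular and sublingual gland.

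Other saliva genes overlapped with liver in parotid. ZG16B was at 1124 to 2378 TPM in liver and 516 to 3108 TPM in parotid, which overlapped, and its difference was 0.55 (limma adjusted p = 0.176). Against sublingual gland, with 2016 to 332616 TPM, it was -5.40. MUC7, the small mucin of saliva, differed by 0.46 from parotid, -3.76 from submandibular and -5.0 from sublingual gland, with 54.8 to 217 TPM in liver. After scaling its difference from parotid was -0.75 (limma adjusted p = 0.0273). Without animal 4 the submandibular value was -4.71. JCHAIN, the joining chain of secreted antibody, was higher in liver than in parotid as deposited (1.27, limma adjusted p = 0.00102) but not after scaling (0.09, limma adjusted p = 0.776), and it was lower than in sublingual gland (-4.65, limma adjusted p = 0.000555).

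SLPI, a secreted protease inhibitor, was opposite in sublingual gland. Its liver values, 71.7, 104 and 172 TPM, lay above all parotid (6.93 to 35.6 TPM) and submandibular values (13.3 to 38.9 TPM) and below all sublingual values (681 to 10462 TPM). The differences were 2.70, 2.17 and -4.06, so that the mean over glands was 0.27 (limma adjusted p = 0.378). CLDN22, a claudin, and SCGB3A1, a secretoglobin, had the same signs, with -3.59 and -3.07 from sublingual gland. 1252 genes had a symbol and averaged 100 TPM or more in 1 of the 4 tissues. As deposited, 687 of them were called in the same direction against parotid and submandibular gland, and 73 of these had the opposite sign against sublingual gland, 5 of them past the threshold there. After scaling the opposite sign was found in 23 of 645, 2 of them past the threshold. With parotid as the gland apart it was 6 of 506 as deposited and 3 of 561 after scaling, and with submandibular gland 1 of 528 and 0 of 556. The gene for submandibular gland was CXCL17, a mucosal chemokine, at 0 to 2.36 TPM in liver, 0.266 to 2.29 TPM in submandibular and 24.6 to 300.5 TPM in sublingual gland, with a difference of 0.12 from submandibular gland (limma adjusted p = 0.8).

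The transcription factors of salivary and oral epithelium were mostly lower in liver against every gland. All 31 were tested, 27 were lower in liver and 2 higher, and 20 were lower against every gland as deposited and 23 after scaling (medians -1.72 and -2.08). The shares lower against every gland were 64.5% and 74.2%, beside 3.78% and 10.4% of all tested genes. PITX1, a factor of oral ectoderm, had liver values of 2.02, 2.66 and 4.18 TPM and gland values of 5.58 to 330.1 TPM (-3.52, limma adjusted p = 6.54e-07). SOX10, of acinar progenitors and glia, differed by -3.15, and SPDEF, of mucous cells, by -3.06. BHLHA15, which builds the secretory apparatus of serous cells, differed by -4.09 from parotid, -3.40 from submandibular and -1.25 from sublingual gland.

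The 2 factors higher in liver were ESRP2, an epithelial splicing regulator, and XBP1, of the secretory stress response. ESRP2 held against every gland as deposited (1.90, limma adjusted p = 3.36e-05) but not after scaling, where it was still higher than the mean of 3 glands (1.11). XBP1 was at 114 to 339 TPM in liver and differed by 0.72 (limma adjusted p = 0.0348), and after scaling by -0.07 (limma adjusted p = 0.844).

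Genes of fluid and ion secretion were called in both directions, more often as lower in liver. Of 36 listed 31 were tested, 21 were lower in liver and 7 higher, with 13 and 5 against every gland. After scaling 22 were lower and 4 higher, with 18 and 4 against every gland (medians -0.96 and -1.44). The shares lower were 67.7% as deposited and 71.0% after scaling, beside 11.3% and 24.6% of all tested genes. The shares higher were 22.6% and 12.9%, below the 49.1% and 25.5% of all tested genes. Beside AQP5 the lower genes included the aquaporins AQP3 (-3.77) and AQP1 (-3.22), the potassium channels KCNN4 (-3.37) and KCNMA1 (-3.03), and the muscarinic receptor CHRM3 (-1.14). ANO1, the apical chloride channel of acinar cells, was higher in liver as deposited (1.18, limma adjusted p = 0.01) and differed by 0.38 after scaling (limma adjusted p = 0.437). P2RY2, a nucleotide receptor, was higher in liver under either scaling (3.52 and 2.82), as were the anion exchanger SLC4A2 (1.62 and 0.90) and the receptor VIPR1 (1.81 and 1.13).

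Of 28 duct, basal and myoepithelial genes 24 were tested, and 17 were lower in liver and 5 higher, with 9 and 1 against every gland (median -1.76). After scaling 18 were lower and 1 higher, with 17 and 1 against every gland (median -2.20). The shares lower against every gland were 37.5% and 70.8%, beside 3.78% and 10.4% of all tested genes. KRT5 differed by -2.80, KRT17 by -2.93 and the myoepithelial CNN1 by -1.87. KRT8 and KRT18, keratins of simple epithelia that hepatocytes also make, were higher in liver as deposited (0.77 and 0.99) and differed by -0.04 and 0.17 after scaling, where neither passed. CDH1, the epithelial cadherin, was higher under either scaling (1.97 and 1.24).

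Of 15 mucosal plasma cell genes 11 were tested, 6 were lower in liver and 3 higher as deposited, 7 lower and 1 higher after scaling, and 1, DERL3, was lower against every gland (-1.43, limma adjusted p = 0.00101). The lower genes were 54.5% and 63.6% of those tested, beside 11.3% and 24.6% of all tested genes. Without the fat-rich submandibular library 4 were lower and 3 higher. SDC1, which marks plasma cells and is also a hepatocyte surface proteoglycan, was the gene higher under either scaling (3.56 and 2.86).

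Markers of other tissues were read the same way. Of 9 tested skeletal muscle genes 6 were lower in liver as deposited, 8 after scaling and 3 without the fat-rich submandibular library, and MB, myoglobin, was the 1 lower against every gland (-3.22). The shares lower were 66.7% as deposited and 88.9% after scaling, beside 11.3% and 24.6% of all tested genes. The muscle sum was 37.0 to 545 TPM in liver and 59.0 to 94521 TPM in parotid. The muscle-rich parotid and sublingual libraries were not left out of these list counts, and their part in the 6 calls was not tested. Of 9 adipose genes 3 were lower as deposited (CIDEA, LPL and ADIPOQ) and 5 after scaling, and 1 was higher under either, THRSP, a lipogenic gene shared with liver (2.41). The shares lower were 33.3% and 55.6%, beside 11.3% and 24.6% of all tested genes. Without the fat-rich submandibular library 3 were lower and 3 higher. CIDEA was then at -1.82, beside -2.07 with all libraries, and at -1.16 without animal 4. CIDEC, a lipid droplet protein, did not pass (-0.54, limma adjusted p = 0.32), and the submandibular library of animal 4 held 1055 TPM of it against 0.685 to 9.71 TPM in the other 5.

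Of 5 tested blood genes 4 were higher in liver under either scaling, beside 49.1% of all tested genes as deposited and 25.5% after scaling. HBB, beta globin, was at 212 to 2137 TPM in liver and 28.9 to 219 TPM in 17 gland libraries (2.67), and the fat-rich submandibular piece held 5306 TPM. Globin genes are near-identical copies, and these values are uncertain. None of 9 tested pancreas genes was called in either direction by limma under either scaling, while 3 had an unadjusted p below 0.05 as deposited. Without the fat-rich submandibular library 1, CELA3B, was called higher. CLPS, pancreatic colipase, was at 422, 551 and 1139 TPM in liver, and its gland values of 139 to 1149.9 TPM overlapped them.

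AMY2B, an amylase gene of the locus the study addressed, overlapped between liver and all 3 glands. Its liver values in animals 1 to 6 were 76.2, 113, 123, 156, 149.7 and 155 TPM. Parotid held 134, 174 and 309 TPM, submandibular gland 83.1, 117 and 131 TPM and sublingual gland 23.2, 103 and 167 TPM. The difference in log2 as deposited was -0.51 ± 0.73 from parotid, 0.18 ± 0.46 from submandibular and 0.47 ± 0.93 from sublingual gland (SD, n = 6 each; exact permutation p = 0.21875, 0.34375 and 0.28125, each 0.34375 adjusted over the 3), and liver was lower than parotid in 4 of 6 animals. The mean within-animal difference was 0.05 ± 0.38 (SD, n = 6), higher in liver in 5 of 6 animals, and the exact permutation p over sign flips, two-sided, was 0.78125, where the smallest p that 6 animals allow is 0.03125. After scaling it was -0.74 ± 0.60 (SD, n = 6), lower in 5 of 6 animals (exact permutation p = 0.0625). Amylase genes are near-identical copies, and how reads were divided among them is not given in the sources used here.

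**Figure D4:**
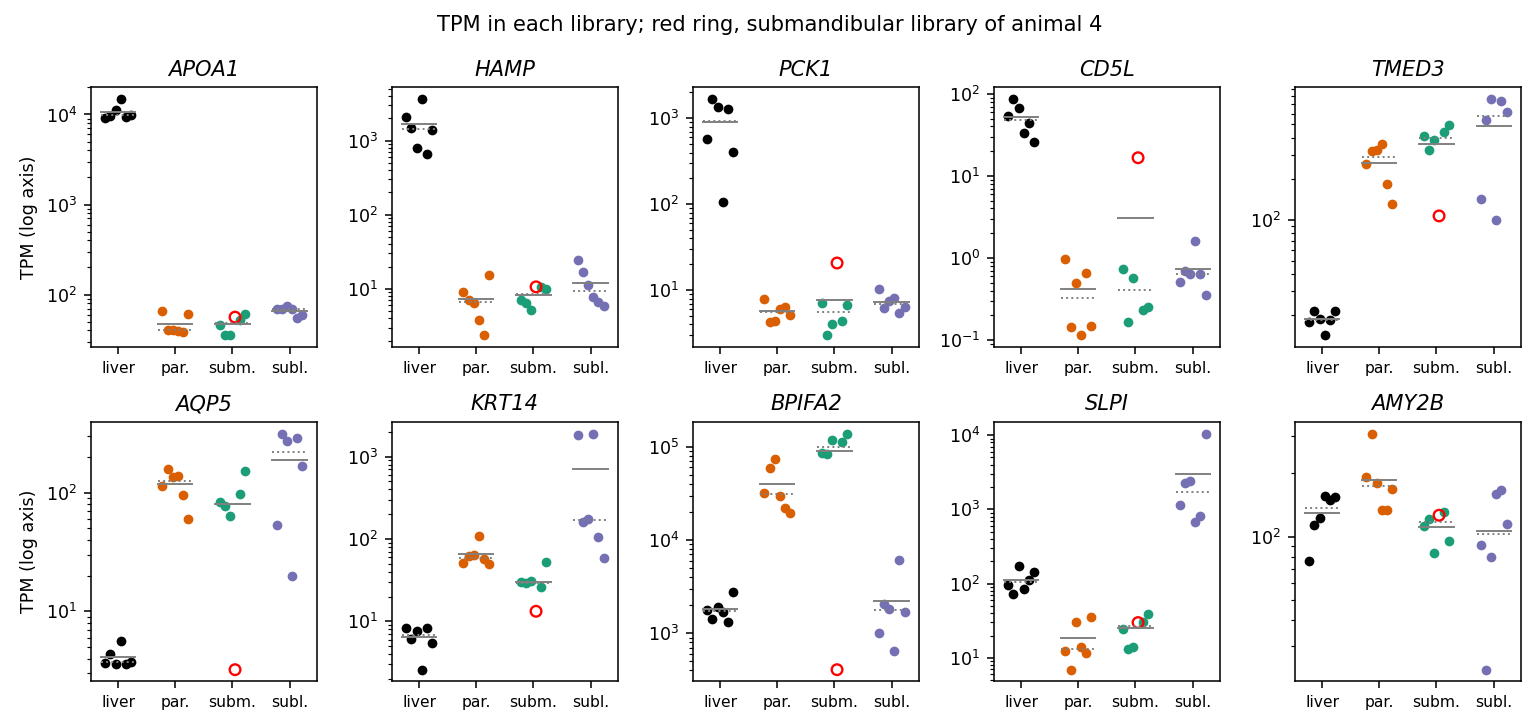
TPM (y axis, log scale) of 10 genes in each liver, parotid, submandibular and sublingual library (x axis, 6 animals each); the solid grey line is the mean, the dotted line the median, and the red ring the submandibular library of animal 4. APOA1 and HAMP were separated in every library, AQP5 was separated in all but the ringed one, SLPI was above liver in sublingual gland and below it in the other 2 glands, and AMY2B overlapped in all 4 tissues.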

How the data were processed

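Paired-end RNA sequencing (RNA from 3 frozen sections per piece, per the labels' protocols) gave 1 library per tissue and animal. The authors deposited 1 table of TPM per gene and library, estimated with kallisto per the submitters' processing notes; the transcriptome, the genome build, versions and the summing of transcripts to genes are not given in the sources used here. TPM keeps no read counts, so depth is unknown and no counting interval or count model was used. Values were taken as log2(TPM + 1). A gene was kept where 6 or more of the 24 liver and gland libraries reached 1 TPM. The 6 within-animal differences entered limma 3.58.1 (R 4.3.3) with a trend on mean level and Benjamini-Hochberg adjustment over 13032 genes. Trimmed-mean factors (30% of log ratios, 5% of levels trimmed, unweighted) over all 30 libraries were applied as the second scaling and were 1.36 to 1.63 in liver and 0.462 to 2.89 in the glands.

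The animal number comes from the labels' animal id. Deviations from tissue means correlated by 0.138 on average within an animal and -0.0207 between animals. No libraries were identical, with a highest correlation of 0.979. On simulated differences for 13032 genes in the comparison with the mean of 3 glands, with 200 changed, 40% of changes of 1 and 91% of changes of 2 (log2) were recovered, and 3.68% of calls were false. The simulation gave all glands 1 value per gene and added independent noise to liver alone. It changed far fewer genes than the 60.4% called in the data and held no outlying library. Its rates therefore check the code and need not hold for the real libraries. Genes named were the 12 largest rises and falls with a symbol, at least 100 TPM in the higher side, 1 direction in 6 of 6 animals and a hold against every gland, then leading and exceptional members of each list. The members and lists were chosen with earlier results of these data known. Alternatives were the scaling, pseudocount, filters, no pairing, larger fits, left-out libraries and left-out animals. Scaling together with left-out libraries, the scaled counts of genes opposite in 1 gland, the list counts without 1 library and the single-gland tests of AMY2B were added after seeing the data. A few listed genes are counted within their lists but not reported here singly. No sequences were used here.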

Additional observations from a re-analysis of the deposited data

Results flagged for a closer look

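16 of the 124 sets of 6 within-animal differences (liver minus the mean of 3 glands) held 1 animal whose gap to the nearest other was a larger part of the range than Dixon's 95% critical value for 6 samples, where chance gives about 1 set in 20. In 11 of them that animal was animal 4, whose submandibular library was rich in fat markers and whose sublingual library was low in saliva genes; their part in these values was not tested.

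For genes low in liver, animal 4 stood above the others. Its difference was -1.89 for LRRC26 (others -5.14 to -4.23), -1.81 for AQP5 (others -4.93 to -4.11) and -0.50 for LPO (others -5.12 to -3.87). For ZG16B it was 1.01 (others -4.10 to -2.62), for PIP, a saliva protein, 0.67 (others -4.77 to -3.29) and for MUC7 0.67 (others -3.85 to -2.84). For macrophage and fat genes animal 4 stood below the others: C1QC was at 0.25 (others 3.62 to 5.03), C1QB at 0.56 (others 3.25 to 4.40), CIDEA at -6.62 (others -2.06 to 0.48) and CIDEC at -3.51 (others -0.64 to 0.66). HAMP in animal 4 was at 8.86 (others 6.57 to 7.36), with the highest liver value of the 6.

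In other animals, FBP1 was at 5.68 in animal 2 (others 5.31 to 5.41), DNASE1 at -0.20 in animal 3 (others 0.70 to 1.18), PITX1 at -2.34 in animal 6 (others -3.95 to -3.43), SLPI at -0.79 in animal 6 (others 0.19 to 0.74) and AMY2B at -0.71 in animal 1 (others 0.06 to 0.34).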

How the results depend on the processing

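The counts of genes changed, 7869 against the mean of 3 glands, 9378 against parotid, 5059 against submandibular, 4444 against sublingual and 2837 against every gland, depended on the filter, the scaling and 1 library. With a filter of 5 TPM they were 5116 against the mean, 5977 against parotid and 2888 against sublingual gland. With a minimum change of 1 they were 1984, 2624, 1367, 1471 and 980 in the same order. Trimmed-mean scaling gave 5693 against parotid, and 6035 with the 4 libraries rich in fat or muscle also left out. The submandibular count was 10772 without the submandibular library of animal 4, and the same without the 4 libraries, and leaving out each animal gave 3022 to 10772. With trimmed-mean scaling the submandibular count was 5862 with all libraries and 6763 without that of animal 4. Leaving out each animal gave 6504 to 9500 against the mean and 2086 to 2880 against every gland. Without the replicate block, that is with no pairing by animal, 7949 genes were called against the mean, and of the named genes XBP1, TNNC2 and TNNT3 lost their call.

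With trimmed-mean scaling the sign turned for XBP1 (-0.0679), KRT8 (-0.0376), ECM1 (-0.00026), HBG2 (-0.0380), CLPS (-0.27), PRSS1 (-0.19), CELA3B (-0.15), CPA1 (-0.12), SLPI (-0.50), CLDN22 (-0.56), SCGB3A1 (-0.0926) and AMY2B (-0.74). Under that scaling 12 named genes, XBP1 and KRT8 among them, lost a call, and 4 named genes other than AMY2B gained one. Leaving out 1 animal turned the sign of CIDEC (0.0489 without animal 4, range -0.785 to 0.0489), CLDN22 (-0.14, -0.24 and -0.05 without animals 1, 4 and 5, range -0.238 to 0.240), SCGB3A1 (-0.15 without animal 2, range -0.154 to 0.722) and AMY2B (range -0.0083 to 0.20). The causes were not tested. Depth is unknown, so how far counting noise limits low genes cannot be given.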
